A study of Mus musculus with 21 samples.

Results

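The regions described here are the places in the mouse genome where a binding peak of LDB1 and a binding peak of ISL1 coincided in pancreatic islets. They were chosen as the LDB1 peaks that overlapped an ISL1 peak by at least 1 bp, which gave 1044 of the 3359 LDB1 peaks (31.1%) and 1044 of the 2330 ISL1 peaks (44.8%). Each shared LDB1 peak met exactly 1 ISL1 peak and the reverse, so the regions form 1044 pairs. The 2315 LDB1 peaks without an ISL1 peak and the 1286 ISL1 peaks without an LDB1 peak serve below as the comparison.

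LDB1 is an adaptor protein that does not bind DNA itself. It dimerises and holds together LIM-domain proteins, and through them it can join distant regulatory elements and promoters. ISL1 is a LIM-homeodomain transcription factor of endocrine islet cells and motor neurons, whose LIM domains bind LDB1 and whose homeodomain recognises short AT-rich DNA. A region occupied by both proteins is therefore a candidate site of an LDB1 and ISL1 complex, although coincident peaks do not show that both proteins sat on the same DNA molecule or in the same cell.

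Binding was measured by chromatin immunoprecipitation followed by sequencing (ChIP-seq) in islets of wild-type male CD1 mice aged 8 to 10 weeks, with 1 LDB1 sample, precipitated with an antibody sold under the LDB1 synonym CLIM-2, and 1 ISL1 sample. Islets hold α-, δ- and other cells beside β-cells, so a peak cannot be assigned to a cell type, and the peak lists hold nothing with which to check the tissue label. RNA came from 18 libraries of sorted, lineage-marked β-cells of male mice of a mixed SV/129 and C57Bl/6 background, all carrying a YFP reporter at Rosa26 (Rosa26LsLeYFP/ LsLeYFP) and MIP-CreERTm, a tamoxifen-switched Cre driven by an insulin promoter. The 5 WT libraries carried nothing further, 8 Ldb1-KO libraries also carried Ldb1L/L, and 5 Isl1-KO libraries also carried Isl1L/L. WT and Ldb1-KO cells were sorted at postnatal day 56 after 5 gavages of tamoxifen at 150 µg per g from day 28 and another 5 from day 35, and Isl1-KO cells at day 49 after 5 gavages at 100 µg per g from day 28 alone.

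With 1 ChIP-seq sample per protein no difference between regions has a replicate check, and since the members were chosen from the same peak lists, their scores, offsets and positions are given as a description without a test. Positions are on mouse build mm9, the build that the submitters' processing notes name. Gene positions and genome sequence of that build were not used here, so the regions are identified by coordinates and no gene is named for any of them.

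Every deposited peak in both lists was 200 bp wide and carried 1 score, by which the lists are sorted. No source used here gives its unit. All LDB1 scores fell on whole multiples of 0.0609 and all ISL1 scores on whole multiples of 0.0324, within the rounding of 0.005, so each list is a ladder of equal steps, as a number of sequenced fragments times a constant would be. LDB1 peaks ranged from 10 to 130 steps and ISL1 peaks from 14 to 328 steps. If 1 step were 1 fragment, which no source states, a peak at the LDB1 minimum of 10 would have a 95% exact Poisson interval of 4.80 to 18.4 and the highest LDB1 peak, at 130, one of 109 to 154. These intervals cover counting error only, and on that reading neighbouring places near the bottom of a list could not be ordered.

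The shared peaks lay among the higher scores of each list. The LDB1 score of the shared peaks had a median of 1.16 with quartiles of 0.91 and 1.595, against a median of 0.73 with quartiles of 0.67 and 0.91 in LDB1 peaks without an ISL1 peak. In steps these medians were 19 and 12. On the ISL1 side the shared peaks had a median score of 0.71 with quartiles of 0.58 and 0.91, against 0.55 with quartiles of 0.52 and 0.62 in ISL1 peaks without an LDB1 peak. The ranges overlapped almost fully. Shared peaks reached down to the lowest score of both lists, 0.61 for LDB1 and 0.45 for ISL1, and unshared peaks reached 4.99 and 10.63.

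The share of peaks that coincided fell steeply along the LDB1 list. In the highest decile of LDB1 peaks, with scores of 1.52 to 7.92, 299 of 336 overlapped an ISL1 peak (89.0%). The next deciles gave 66.4%, 44.9% and 31.5%, and in the lowest decile, with scores of 0.61 to 0.67, 19 of 335 did (5.67%). The ISL1 list fell more gently, from 182 of 233 in its highest decile (78.1%) and 179 of 233 in the next (76.8%) to 29 of 233 in its lowest (12.4%). The LDB1 share was above the ISL1 share in the first decile and below it in the others, a description without a test.

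**Figure D1:**
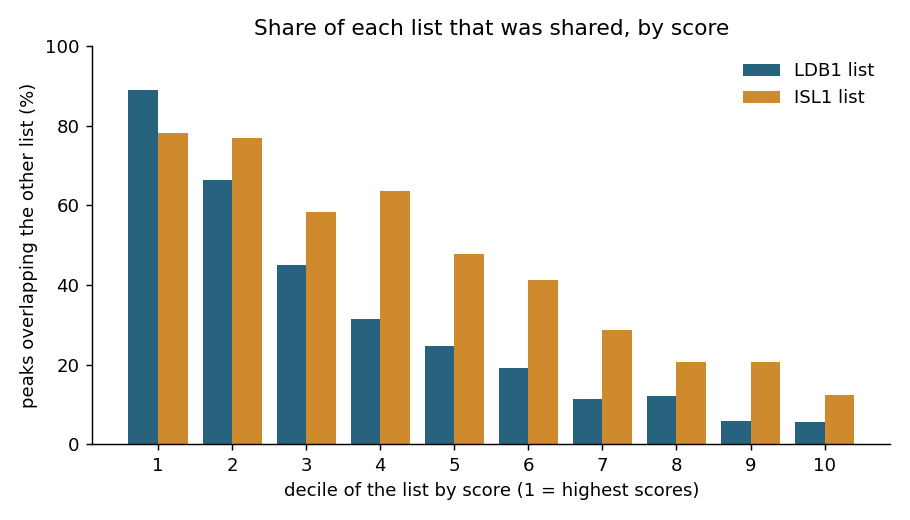
Percentage of peaks that overlapped a peak of the other list, for each decile of the LDB1 list (blue) and of the ISL1 list (orange), with the highest scores at the left. The LDB1 bars fall from 89.0% to 5.67% and the ISL1 bars from 78.1% to 12.4%.

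Among the 100 highest LDB1 peaks, 97 were shared, while among the 100 highest ISL1 peaks 77 were. Of the 3 exceptions on the LDB1 side, chr16:23842795-23842994 (LDB1 score 3.41) missed an ISL1 peak by only 37 bp. The other two lay near each other on chromosome 2, at chr2:77771780-77771979 (score 4.99) and chr2:77744942-77745141 (score 3.35), with the nearest ISL1 centre 720049 and 746887 bp away. The highest ISL1 peak of all was not shared. It lay at chr3:53267522-53267721 with a score of 10.63, or 328 steps, against 4.89 for the next ISL1 peak, and the nearest LDB1 centre was 312584 bp away. The ISL1 peaks in places 4 and 10, at chr10:127533749-127533948 and chr8:47637135-47637334, were not shared either. Their nearest LDB1 centres were 446461 and 229433 bp away.

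Peaks of both lists mostly either overlapped or lay far apart. Counting all combinations of an LDB1 and an ISL1 peak on a chromosome, 1044 had centres less than 200 bp apart, the distance at which peaks of this width overlap. Only 19 lay 200 to 399 bp apart, 13 lay 400 to 599 bp apart, 4 lay 600 to 799 bp apart and 0 lay 800 to 999 bp apart. From 1000 to 2999 bp the count averaged 5.5 per 200 bp. Outside the shared set, the median distance from an unshared LDB1 peak to the nearest ISL1 peak was 285 kb. From an unshared ISL1 peak to the nearest LDB1 peak it was 222 kb. Spacing within the lists was of a similar size. The median distance to the nearest peak of the same list was 172 kb for unshared LDB1 and 296 kb for unshared ISL1 peaks.

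**Figure D2:**
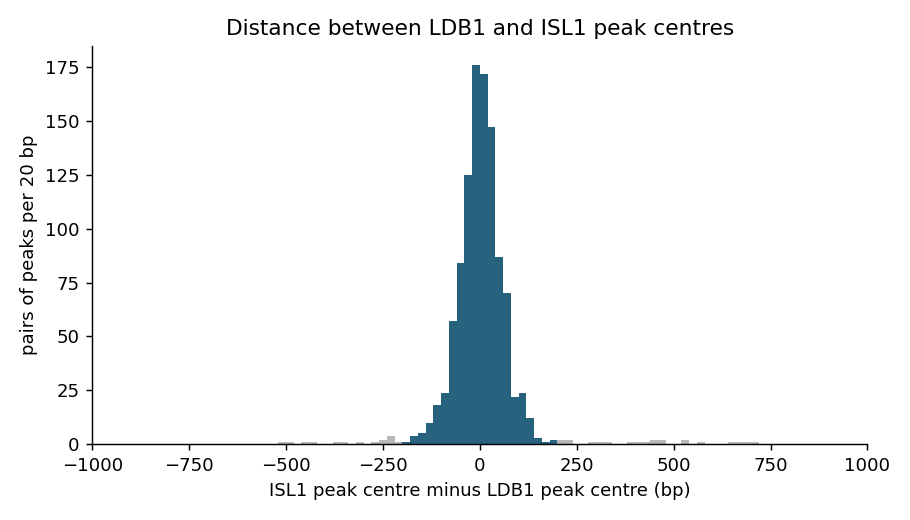
Number of LDB1 and ISL1 peak combinations per 20 bp of distance between their centres, out to 1000 bp on each side, with shared pairs in blue and combinations that do not overlap in grey. The 1044 shared pairs pile up around 0, and the 36 combinations from 200 to 999 bp are spread thinly on both sides.

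Within the pairs the centres nearly coincided. The median distance between the LDB1 and the ISL1 centre was 32 bp, with quartiles of 15 and 59 bp. It was at most 10 bp in 194 pairs (18.6%), at most 50 bp in 701 (67.1%) and at most 100 bp in 966 (92.5%). The ISL1 centre lay at the higher coordinate in 531 pairs, at the lower in 504 and at the same base in 9. The offset varied weakly with score. In the quintile of pairs that ranked best on both lists its median was 24 bp, in the middle quintile 34 bp and in the lowest 43.5 bp, while quintiles 2 and 4 gave 32 and 31 bp. Across the 1044 pairs, the Spearman correlation of offset with mean place in the lists was 0.14, a weak relation.

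Few members depended on the minimum overlap. The smallest overlap was 6 bp, at chr14:85908506-85908705, a pair with an LDB1 score of 1.95 and an ISL1 score of 0.91. The next 4 overlapped by 8, 12, 22 and 28 bp, with LDB1 scores of 0.79, 0.79, 0.67 and 0.97. Just outside, the LDB1 peak chr5:45986958-45987157 (score 1.1) abutted an ISL1 peak with a gap of 0 bp. The next 4 were separated by 8, 10, 24 and 27 bp and had LDB1 scores of 1.28, 0.85, 1.64 and 1.1. The scores on both sides of the limit overlapped.

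Several regions stood near the top of both lists. The best mean place was held by chr1:53266380-53266579, in place 2 of both lists, with an LDB1 score of 7.73, an ISL1 score of 4.89 and centres 9 bp apart. Next came chr5:69730374-69730573, with scores of 6.64 and 4.28 and centres 14 bp apart, and chr5:29947210-29947409, with scores of 7.43 and 3.79 and centres 22 bp apart. The region chr16:75831922-75832121 had scores of 6.52 and 4.05. The highest LDB1 peak, chr8:107729761-107729960, had scores of 7.92 and 3.21 with centres 7 bp apart.

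These regions and chr17:63702221-63702420, with scores of 7.0 and 3.6, were the 6 highest LDB1 peaks, and all 6 stood among the 9 highest ISL1 peaks. They were set apart from the rest of the LDB1 list, whose next score was 4.99. The remaining 4 of the 10 best-placed regions were chr3:130972031-130972230, with scores of 4.39 and 3.47, chr6:16267108-16267307, with 4.81 and 2.95, chr4:7508167-7508366, with 3.9 and 2.62, and chr6:62570629-62570828, with 4.14 and 2.4. Centres lay 7 to 48 bp apart in all 10. Of the 10 highest peaks of each list 6 formed pairs with each other, of the 100 highest 56, and of the 1000 highest 517.

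The scores of the 1044 pairs rose together. Their Spearman correlation was 0.61, and the Pearson correlation of their log2 values was 0.72. Both describe these pairs only, which come from 1 sample per protein and have scores cut off at the bottom of each list. Whether both samples shared an islet preparation is not known here. Among the 561 pairs with an LDB1 score at or above the pair median the Spearman correlation was 0.61, and among the 483 below it was 0.11, where LDB1 scores lay below 1.16. The lower range is narrow and cut off at the bottom of the list, so the values of the 2 ranges cannot be compared. The percentile places of a pair in its lists differed by at most 10 points in 407 pairs (39.0%) and at most 25 points in 737 (70.6%).

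**Figure D3:**
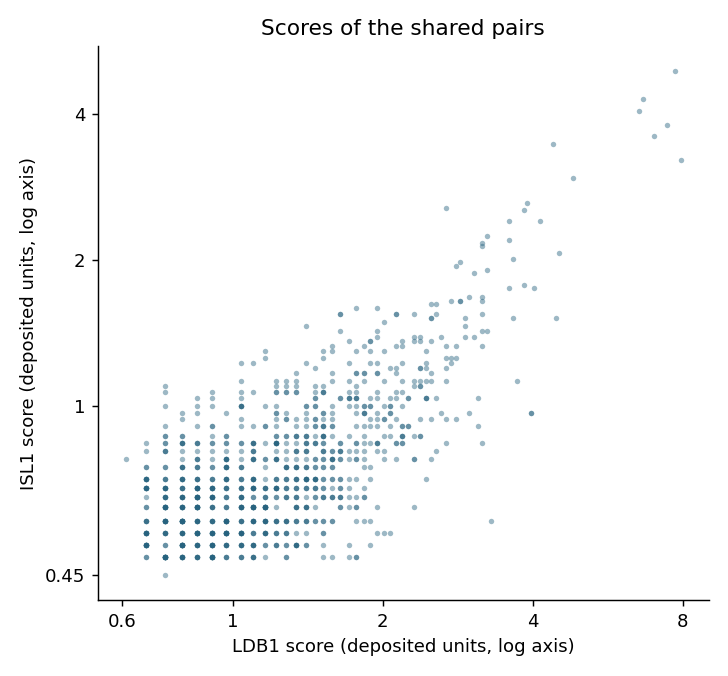
LDB1 score against ISL1 score of the 1044 shared pairs, in the deposited units on log axes, each point a pair and darker where pairs coincide. The 6 pairs at the upper right, with LDB1 scores of 6.52 to 7.92, stand apart, and the points below an LDB1 score of 1.16 lie in a narrow range cut off at the bottom of the list.

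Some pairs were lopsided. The ratio of LDB1 to ISL1 steps had a median of 0.88 and ran from 0.524 at the 5th to 1.41 at the 95th percentile. The highest ratio, 3.0, was that of chr4:46862972-46863171, which held place 27 in the LDB1 list (score 3.29) and place 1318 in the ISL1 list (score 0.58). The regions chr10:50343509-50343708 and chr16:37425929-37426128, followed with a ratio of 2.17, an LDB1 score of 3.96 and an ISL1 score of 0.97 each. At the other end, chr6:138079212-138079411 held place 2521 in the LDB1 list (score 0.73) and place 171 in the ISL1 list (score 1.1), a ratio of 0.353. The lists have steps of different size, so a ratio below 1 does not mean that ISL1 binding was the stronger, and ratios are comparable only among pairs.

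Shared regions were found on all autosomes and on X. Chromosome 2 held the most, 85, and among autosomes chromosome 17 the fewest, 30. The share of LDB1 peaks that were shared ran from 24.5% on chromosome 1 (64 of 261) to 38.4% on chromosome 19 (33 of 86). Chromosome 1 also had the lowest share of ISL1 peaks, 36.6% of 175, apart from Y, where the ISL1 list had 1 peak, the LDB1 list 0 and the shared set 0. Chromosome X held 14 shared regions, 36.8% of its 38 LDB1 peaks and 56% of its 25 ISL1 peaks.

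Most shared regions stood alone. The median gap between neighbouring shared regions was 1.40 Mb, with quartiles of 479 kb and 3.05 Mb, a smallest gap of 419 bp and a largest of 46.6 Mb on X. When neighbours with centres at most 12500 bp apart were joined, 988 remained single and 56 fell into 27 clusters, 25 of 2 regions and 2 of 3. The number of clusters rests on the joining distance and was 13 at 5 kb and 41 at 25 kb. Clustered regions had a median LDB1 score of 1.34 and a median ISL1 score of 0.71, against 1.16 and 0.71 for the single ones. The clusters spanned 652 to 12259 bp, and within 12500 bp of their edges 5 of the 27 had a further LDB1 peak without ISL1 and 1 had a further ISL1 peak without LDB1.

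The tightest cluster of 3 lay at chr12:39755478-39757446, within 1969 bp. Its members had LDB1 scores of 1.77, 1.4 and 1.77 and ISL1 scores of 1.0, 0.91 and 0.62. Peaks of both proteins at each of the 3 follow from the rule for shared regions. The other cluster of 3, chr3:31182329-31194587, spanned 12259 bp, with LDB1 scores of 0.73, 1.52 and 1.16 and ISL1 scores of 0.49, 0.65 and 0.49. Of the clusters of 2, the one with the highest peak was chr17:63692412-63702420, where the region in LDB1 place 4 shared a span of 10009 bp with a region of scores 2.07 and 0.91. The next were chr16:28760860-28763216, with LDB1 scores of 1.71 and 2.98, and chr9:85050865-85052184, with 2.56 and 1.46.

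On a wider scale, the genome was divided into windows of 1 Mb. Shared regions fell into 786 of them, 594 with 1 region and 47 with 3 or more, and the most in any window was 5, reached in 4 windows. The most compact of these 4 held the tight cluster on chromosome 12, chr12:39668570-39757446, with 5 regions in 88.9 kb. Its other members had LDB1 scores of 3.17 and 0.85 and ISL1 scores of 1.43 and 0.58. At chr2:105578998-105821581 the highest of 5 regions had scores of 4.02 and 1.75, and the other LDB1 scores were 0.73 to 1.4. At chr5:29539099-29947409 the region in LDB1 place 3 was joined by 4 with LDB1 scores of 0.85 to 1.28. At chr18:55117617-55707550 no member stood out, with LDB1 scores of 0.85 to 1.64 and ISL1 scores of 0.55 to 1.1. These windows were chosen after their counts were seen, and fixed window borders can split a group.

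Shared LDB1 peaks had another LDB1 peak within 12500 bp in 138 of 1044 cases (13.2%), and LDB1 peaks without ISL1 in 213 of 2315 (9.20%). Both kinds were measured against the same LDB1 list, so its overall density was the same for both, while its local density around each kind can differ. The median distance to the nearest LDB1 peak was 147 kb and 172 kb. The contrast differed between levels of score. In the quintile of the LDB1 list with the highest scores, 69 of 522 shared peaks (13.2%) and 22 of 150 unshared peaks (14.7%) had such a neighbour. In the quintiles between, from higher to lower scores, the shares were 11.3%, 13.6% and 16.5% for shared and 10.1%, 11.0% and 8.60% for unshared peaks. In the lowest quintile the counts were 7 of 39 (17.9%) and 40 of 632 (6.33%). In the ISL1 list the shares were 8.52% for shared and 7.70% for unshared peaks. No test was made of these differences.

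**Figure D4:**
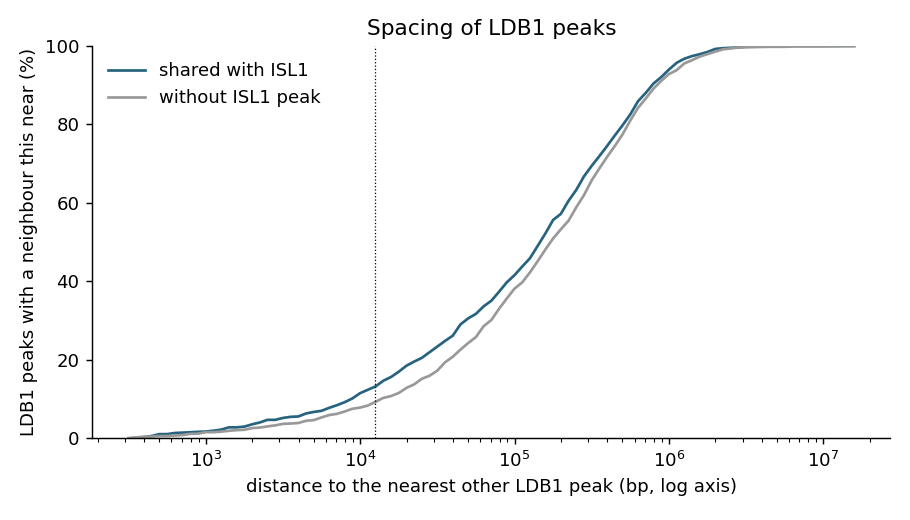
Cumulative percentage of LDB1 peaks that had another LDB1 peak within the distance on the log axis, for the 1044 peaks shared with ISL1 (blue) and the 2315 without (grey), with 12500 bp marked by a dotted line. The blue curve lies slightly higher over most of its course, at 13.2% against 9.20% on the dotted line.

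The RNA libraries show whether the genes of both bound proteins were expressed in β-cells and how they moved in the knockouts. The deposited values were read as log2 of a normalized value plus 1, and differences were tested with limma over 13501 genes with Benjamini-Hochberg adjustment at 0.05. The labels do not say whether libraries came from separate mice, so p-values measure the spread between libraries only. In such bulk RNA, fewer expressing cells and less RNA per cell cannot be told apart.

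Markers of cell types moved with genotype. The mean log2 level of 6 β-cell genes (Ins1, Ins2, Mafa, Slc2a2, Iapp, Pdx1) was 13.0 to 13.5 over the WT libraries, 9.85 to 11.6 in Ldb1-KO and 11.1 to 12.4 in Isl1-KO, with both knockouts below all WT libraries. By limma at the same threshold 5 of the 6 were lower in Ldb1-KO (all but Iapp) and 3 in Isl1-KO (Mafa, Slc2a2, Pdx1). Over all genes tested, 10.6% were higher and 11.0% lower in Ldb1-KO, and 7.02% higher and 8.39% lower in Isl1-KO. The mean of 3 α-cell genes (Gcg, Irx2, Ttr) was 6.42 to 7.75 in WT, 8.52 to 10.1 in Ldb1-KO and 7.75 to 9.57 in Isl1-KO, and 3 of 3 were higher in Ldb1-KO and 1 (Ttr) in Isl1-KO. The glucagon gene Gcg had medians of 8.87, 11.0 and 11.9 in WT, Ldb1-KO and Isl1-KO. It ranged from 7.47 to 9.21 in WT and from 9.81 to 13.3 in Ldb1-KO. In Isl1-KO it ranged from 7.92 to 12.7, overlapping WT, and was not called. Of 2 δ-cell genes, Sst was higher in Ldb1-KO.

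The mean of 5 duct genes (Krt19, Krt7, Spp1, Sox9, Cftr) was 3.65 to 4.61 in WT, 4.97 to 5.53 in Ldb1-KO and 4.51 to 5.82 in Isl1-KO. Of the 5, Spp1 and Cftr were higher in both knockouts and Krt7 in Isl1-KO, while Krt19 and Sox9 were called in neither. Medians in WT, Ldb1-KO and Isl1-KO were 0.944, 0.972 and 0 for Krt19 and 0, 0.444 and 1 for Sox9. Krt7 already lay at 9.34 to 9.80 in WT, so the mean of the 5 is not a measure of duct cells alone. The authors' deposited FDR called 2 of the 5 higher in each knockout. Acinar genes varied between libraries: the mean of 10 was 12.0 in WT replicate 1, while WT replicates 2 to 5 had 1.93 to 2.49. Ldb1-KO libraries had 2.64 to 7.27, all above WT replicates 2 to 5, and Isl1-KO libraries had 1.62 to 5.90. By limma 0 of the 10 passed in either knockout, and 0 had an unadjusted p below 0.05. WT replicate 1 decided the Ldb1-KO count. Without it, 2 of the 9 acinar genes then tested were higher in Ldb1-KO, and 8 were at an unadjusted limma p below 0.05. In Isl1-KO both counts stayed at 0 without it. The authors' deposited table instead called 10 of 10 lower in Ldb1-KO and 9 of 10 in Isl1-KO. The part of these cell types in the differences below was not tested.

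Ldb1 lay at 7.60, 7.59, 7.57, 7.11 and 7.66 in WT replicates 1 to 5. In Ldb1-KO it ranged from 5.58 to 6.88 with a median of 6.45, below every WT library, and the groups did not overlap. It fell by 1.11 (SE 0.18, limma adjusted p = 4.35e-05) and was lower in 8 of 8 libraries. In Isl1-KO it was 7.61, 7.74, 7.21, 7.58 and 7.63, overlapping WT, a difference of 0.05 (SE 0.19, limma adjusted p = 0.904) whose sign turned to -0.05 without WT replicate 4.

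Isl1 lay at 9.58, 9.66, 9.61, 9.36 and 9.53 in WT replicates 1 to 5. In Ldb1-KO it ranged from 9.88 to 11.05 with a median of 10.62, above every WT library, a rise of 1.01 (SE 0.15, limma adjusted p = 2.78e-05) in 8 of 8 libraries. In the same libraries the mean of the α-cell genes lay above and that of the β-cell genes below every WT library, as given above. Single genes such as Irx2 and Iapp overlapped WT, and the part of these genes in this rise was not tested. Without the acinar-rich WT replicate 1 the difference was 1.02 for Isl1 and -1.09 for Ldb1. In Isl1-KO it was 9.08, 9.43, 9.04, 9.66 and 9.43, overlapping WT, a difference of -0.22 (SE 0.17, limma adjusted p = 0.431). The table has 1 value for the whole gene, so it shows neither whether the deletion took place nor whether the label is right. Age and tamoxifen dose differed from WT together with genotype in Isl1-KO.

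**Figure D5:**
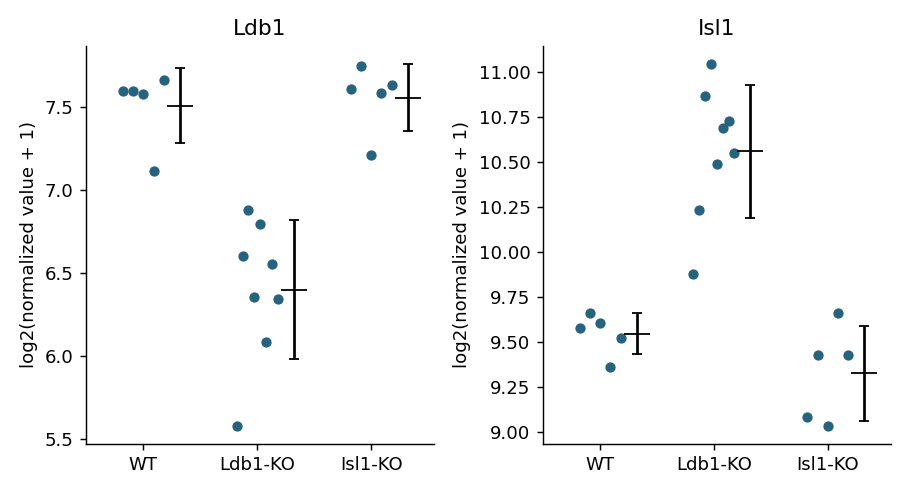
Deposited expression of Ldb1 (left) and Isl1 (right), as log2 of the normalized value plus 1, with a point per library in WT (n = 5), Ldb1-KO (n = 8) and Isl1-KO (n = 5) and bars for the mean ± SD beside them. Ldb1 in Ldb1-KO lies below all WT libraries and Isl1 in Ldb1-KO above them. The axes do not start at 0.

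Other proteins can occupy an LDB1 complex, and 19 genes of LIM-domain proteins, LDB1 cofactors and bHLH partners were followed. Of these, 16 passed the filter on low values, and Isl2, Lhx2 and Lhx4 were listed at 0 in all 18 libraries. In Ldb1-KO 3 of the 16 were higher and 2 lower than in WT, where 10.6% and 11.0% of all genes tested were. These counts include Ldb1, the gene targeted in these mice. They also include Lmo3 and Lmo1, which passed the filter on low values through the group where they were higher. The counts are a description, and no excess over the shares of all genes was tested. Beside Isl1, Ssbp2, whose protein stabilises LDB1 complexes, lay at 6.28, 6.42, 6.51, 6.97 and 6.08 in WT replicates 1 to 5 and at 6.65 to 7.26 in Ldb1-KO, where the groups overlapped. It rose by 0.56 (SE 0.15, limma adjusted p = 0.00724), and in the authors' deposited table its difference of 0.49 had an FDR of 0.0784. Lmo3, a LIM-only protein gene listed at 0 in every WT library, was at 0.778 to 2.54 in Ldb1-KO (limma adjusted p = 0.0268). That call was lost without WT replicate 1 (adjusted p = 0.0515 by limma), WT replicate 5 (0.0535) or Ldb1-KO replicate 2 (0.0547), with a pseudocount of 10 (0.0834) and in the authors' deposited table (0.118). Without Ldb1-KO replicate 3, or with a minimum mean value of 10, Lmo3 missed the filter on low values and was not tested. Beside Ldb1, Lmo1, another LIM-only gene, lay at 2.83, 1.82, 3.33, 2.79 and 3.25 in WT replicates 1 to 5 and was listed at 0 in all Ldb1-KO libraries but replicate 2, at 0.889. It fell by 2.69 (SE 0.36, limma adjusted p = 5.66e-06). Lmo1 passed the filter on low values through its WT libraries, and its knockout values lay at or near the floor. With a minimum mean value of 10 it was not tested. In Isl1-KO 0 were higher and 1 was lower, where 7.02% and 8.39% of all genes were, and at an unadjusted p below 0.05 the counts were also 0 and 1, as with the authors' deposited FDR. The lower gene was Lmo1, listed at 0 in all Isl1-KO libraries but replicate 5, at 1.0, and it fell by 2.60 (SE 0.40, limma adjusted p = 7.62e-05). The median difference of the 16 genes was 0.12 in Ldb1-KO and 0.17 in Isl1-KO, beside -0.013 and -0.029 over all genes tested. Both comparisons share the WT libraries.

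The other genes of the list did not pass in either knockout. Among them, Rlim, which encodes a ubiquitin ligase that targets LDB proteins, lay at 10.08 ± 0.17 (SD, n = 5) in WT and 10.31 ± 0.22 (SD, n = 8) in Ldb1-KO. The bHLH genes Tcf3, Tcf4 and Tcf12 encode E proteins, a family that occurs in LDB1 complexes of blood cells, and their differences from WT were -0.29 to 0.43.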

How the data were processed

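ChIP-seq of LDB1 and ISL1 (1 islet sample each) and RNA-seq of 18 libraries of sorted β-cells were used. An input sample was not analysed here. The submitters' processing notes name HOMER, edgeR and mouse build mm9, without roles. No source used here gives the other upstream steps. The authors deposited 1 peak list per protein with a score per peak, whose step was found as the value that best divides all scores. The peak names hold the word pool, and no label says what was pooled. Overlaps, offsets and clusters were computed from these lists with Python 3.11.15 and pandas 2.3.3, and ranks tied on score share their mean rank except where places or deciles follow the deposited order.

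The authors also deposited log2 expression values, log2 fold changes, p-values and FDRs per gene. The normalization is not stated, and the values look like log2 of a quantile-like normalized value plus 1, since all libraries share the highest value, 18.29. Depth is therefore unknown. Of 21913 genes, 13501 whose mean value reached 1 entered 1 limma 3.58.1 fit of all libraries (R 4.3.3, intensity trend, robust settings), with no replicate term. Fold changes are of values plus 1 and understate changes of weakly expressed genes. Scripts were tested on simulated data. All columns of per-sample values were matched to samples.

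The members, lists and tests were chosen with earlier results of these data known. The rule for named regions took the 10 best-placed pairs, the clusters with the most regions and the pairs at the limit of overlap. Lopsided pairs, dense windows and leading unshared peaks were chosen after their values were seen. Ldb1 and Isl1 were named by rule, and other genes of the list of 19 were named after their values were seen. Assigning genes and motifs to regions was planned and needs gene positions and sequence of mm9, which were not used here. RefSeq sequence tables of another build were not used.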

Additional observations from a re-analysis of the deposited data

Results flagged for a closer look

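Ldb1 in WT replicate 4 was 7.112, far below the other 4 WT libraries, which lay at 7.57 to 7.66. The gap to the nearest library was 0.843 of the range of the group. The limit for 5 libraries is 0.71, which chance passes in about 1 in 20 groups, and 14 gene and group combinations were examined (Ldb1, Isl1, Lmo1, Lmo3 and Ssbp2 in each group of libraries where they varied). Without this library the Ldb1 difference between Isl1-KO and WT was -0.051 (limma adjusted p = 0.892) instead of 0.048.

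Lmo1 in Isl1-KO replicate 5 was 1, with the other 4 Isl1-KO libraries at 0, and Lmo1 in Ldb1-KO replicate 2 was 0.8889, with the other 7 at 0. Both stood apart because all other libraries of their group were listed at 0.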

How the results depend on the processing

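The count of shared regions was 1044 and fell to 966 when centres had to lie within 100 bp, which for peaks of 1 width is the same as an overlap of 50%, and to 959 when the LDB1 list was cut to its 2330 highest peaks (chosen after seeing the data). With peaks at or above the median score of each list it was 668, which is 39.5% of the LDB1 and 56.8% of the ISL1 peaks kept. The median offset of 32 bp was 29 bp at an overlap of 50%, which by construction removes the widest offsets, and 30 bp in the higher-scoring peaks. The Spearman correlation of the scores stayed at 0.61. Clusters numbered 13 at 5 kb and 41 at 25 kb against 27 at 12500 bp.

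Ldb1 and Isl1 kept their direction and call between Ldb1-KO and WT under all 26 alternatives, with -1.21 to -0.99 and 0.94 to 1.11 when each library was left out in turn. The Ldb1 difference between Isl1-KO and WT, not called, turned to -0.051 without WT replicate 4 (-0.051 to 0.13 over the libraries left out) and was -0.17 in the authors' deposited table, and the cause was not tested. Of the list of 19 genes, a minimum mean value of 10 left 1 lower in Ldb1-KO and 0 lower in Isl1-KO, since Lmo1 was then not tested. Without Isl1-KO replicates 4 and 5, 1 was higher in Isl1-KO (Tcf12), and the authors' deposited FDR called 1 higher in Ldb1-KO (Isl1), and the cause was not tested. The replicate numbers gave no clear sign of pairing, which this check cannot exclude. Of 15 same-numbered pairs 4 correlated above 0.1, and a sample correlated best with its own number in 5 of 30 checks. Lmo1 kept its call in both knockouts wherever it was tested, and Ssbp2 in Ldb1-KO except with the authors' FDR, while Lmo3 lost its call in 5 of 24 alternatives that tested it. With a replicate block the list gave 4 higher (Rlim beside the others) and 2 lower in Ldb1-KO, with Ldb1 at -1.07 and Isl1 at 0.96, and 0 higher and 1 lower in Isl1-KO. Other distances for genes near shared regions and other windows for motifs were not run, because no gene was assigned to a region. For the regions, the lowest scores, at 10 and 14 steps, limit what a missing overlap shows.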
